A study of Mus musculus with 11 samples.

Results

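The Myc, Max and Mxd network is a set of transcription factors that share 1 dimerisation partner, Max. Its 9 members here are Myc, Mycn and Mycl (the Myc family), Max, the antagonists Mxd1, Mxd4, Mxi1 and Mnt, and Mga. They were taken as the rows of the count table whose Ensembl gene ID carries the member's symbol in the annotation, and all 9 were found among the 48709 genes of the table. All 9 also passed the filter on low counts, which left 31999 genes for testing. Myc proteins activate genes of growth and metabolism as dimers with Max, and they bind the DNA sequence CACGTG, a form of the E-box. Mxd1, Mxd4, Mxi1 and Mnt compete for Max, bind the same sequence and recruit Sin3 corepressor complexes, and Mga takes Max into a Polycomb complex called PRC1.6. Myc is known as an early gene of cells that leave quiescence, the resting state in which muscle stem cells (satellite cells) sit on undamaged fibres.

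RNA was sequenced from skeletal muscle stem cells of Tg:Pax7-nGFP mice on the C57BL/6 background, taken from pectoral, forelimb and hindlimb muscles. All 3 groups carry this transgene, in which Pax7, the gene that marks these cells, directs a nuclear green fluorescent protein. In the group T0 whole muscles were fixed in 0.5% PFA (paraformaldehyde) for 1 h at 4°C. In T3 the cells were first isolated by FACS (fluorescence-activated cell sorting) and then fixed in 0.5% PFA for 30 min on ice. T5 cells had 2 h at 37°C in addition and were fixed like T3. The protocol puts those 2 h on dissected muscle in DMEM before isolation, whereas the series description puts them after isolation, and the order is not settled here. T3 against T0 asks what changed with isolation, T5 against T3 what the added 2 h changed, and T5 against T0 takes both steps together. The kind of fixation differs between T0 and T3 in the same way as the isolation, and the 2 cannot be told apart. There were 3 libraries of T0, 4 of T3 and 4 of T5. T5 libraries that share a letter were added up to 2 replicates, A and B. Whether such libraries share cells or animals is not stated, and a fit that keeps them separate may count the same sample again. Whether libraries stem from different animals is not given in the labels, and the p-values therefore cover the spread between these libraries only, which may be technical. The age of the mice is not given in the sources used here.

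Total counts of T0 libraries ran from 49078859 to 67251946, of T3 libraries from 52632553 to 72638711 and of single T5 libraries from 61837170 to 102347035. Replicate 3 of T0 stands apart from replicates 1 and 2. On the first principal component, which carried 57.9% of the variance, it lay at -80.37 against -158.1 and -121.2, while T3 and T5 lay between 50.7 and 69.48. It had the lowest T0 level of 7 of the 9 members and of 49.5% of all tested genes. The mean level of 1665 receptor genes that are silent in muscle, a measure of background, was 0.067 CPM (counts scaled to a common library size) per kb of exon in this library, 0.0442 and 0.0498 in the other T0 libraries and 0.0577 to 0.0708 in T3 and T5. The 12 markers of muscle stem cells summed to 5410 to 7960 CPM in T0, and in T3 and T5 to 2990 to 3680 and 2250 to 2300. This sum leans on Pax7, the highest of them in T0, with means of 3610, 315 and 316 CPM in T0, T3 and T5. At an adjusted p under 0.05 in edgeR, 3 of the 12 rose and 5 fell in T3 against T0. Over all tested genes these shares were 15.0 and 22.9%. Sdc4 went the other way from Pax7, with means of 150, 939 and 747 CPM. Endothelial markers summed to 308 to 370 CPM in T0, to 551 to 654 in T3, and to 337 to 340 in T5. Myofibre markers summed to 149 to 167, 176 to 248 and 155 to 157 CPM, and those of monocytes, macrophages and neutrophils to 28.7 to 57.8, 43.2 to 73.2 and 48.2 to 57.2 CPM. Fibro-adipogenic progenitor and fibroblast markers summed to 896 to 1300, 496 to 835 and 665 to 669 CPM. In these marker lists, 0 genes stood at 0 in any replicate.

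The sequence that these factors bind was looked up in the promoters of the genes themselves, because several members move together in the values given next. RefSeq windows (GRCm38.p6) that run from 250 bases before to 50 bases after a transcription start were at hand for 8 of the 9 members. The member without a window is Myc, so its promoter was not searched. The motif searched was CACGTG, which reads the same on both strands. It lay in 3 of these 8 genes, and in 2187 of 27025 genes (8.09%) with windows of this kind. The stretches of 30 bases with the motif in capitals are given 5′ to 3′ on the strand of the gene for these members, and for Mlx and Mlxipl, a Max-like factor and its partner.
Max, chr12:76962234-76962263, minus strand: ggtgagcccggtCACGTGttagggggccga
Mnt, chr11:74830789-74830818, plus strand: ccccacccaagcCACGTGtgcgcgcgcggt
Mxd4, chr5:34187912-34187941, minus strand: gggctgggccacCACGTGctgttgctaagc
Mlx, chr11:101087238-101087267, plus strand: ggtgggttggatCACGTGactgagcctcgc
Mlxipl, chr5:135089780-135089809, plus strand: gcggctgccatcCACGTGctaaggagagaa
The position of the first motif base relative to the start site was -3 in Max, where the motif spans the start, -123 in Mnt, -219 in Mxd4, -40 in Mlx and -98 in Mlxipl. These letters are not in the windows of Mga, Mxd1, Mxi1, Mycl and Mycn. The members with the motif did not move alike: Max was higher in T3 than in T0, Mxd4 was lower, and Mnt did not pass the test. A match to these letters is a description of the sequence and does not show that a factor binds there.

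Myc (ENSMUSG00000022346.14, chr15:61985391-61990374, plus strand, GRCm38), the widely expressed member of its family, rose the most of the 9 genes on isolation. Its levels in T0 were 51.3, 63.3 and 15.5 CPM in replicates 1 to 3. In T3 they were 457, 542, 479 and 481 CPM, and in T5 they were 276 CPM in replicate A and 314 in replicate B. The T5 values lie between those of T0 and T3, and no pair of the 3 groups overlaps. Myc was 11.3-fold higher in T3 than in T0 (490 ± 36.6 CPM, SD, n = 4, against 43.4 ± 24.8, n = 3), a log2 difference of 3.50 ± 0.35 (SE) with an adjusted p of 3.68e-08 in edgeR's quasi-likelihood test. Without replicate 3 of T0, in which Myc was lowest, the log2 difference was 3.10 with an adjusted p of 3.1e-08 in edgeR. In bulk libraries a change in the share of cells that express a gene and a change in RNA per cell cannot be told apart.

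After the added 2 h the mean of Myc was 295 ± 27.1 CPM (SD, n = 2). Against T3 this is a log2 difference of -0.73 ± 0.35 (SE), with an unadjusted p of 0.0488 and an adjusted p of 0.387 in edgeR, so the difference did not pass the test although the replicates do not overlap. The interval of ±2 SE runs from -1.43 to -0.03. The call depends on the libraries in the fit: the adjusted p in edgeR was 0.0138 without replicate 3 of T0 and 0.0101 with only T3 and T5 in the fit, at log2 differences of -0.73 and -0.70. Under every other alternative run it stayed above 0.05. Examples are 0.258 in DESeq2, and 0.561 and 0.558 in edgeR without replicate 2 or 4 of T3. Against T0, Myc was still 6.8-fold higher in T5 (log2 2.77 ± 0.36 SE, adjusted p 2.98e-06 in edgeR). The summed endothelial markers are also highest in T3 and lower in T5. Of those 15 genes, 7 rose in T3 against T0 and 5 fell in T5 against T3, beside 15.0 and 0.888% of all genes. Their part in the Myc values was not tested.

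**Figure D1:**
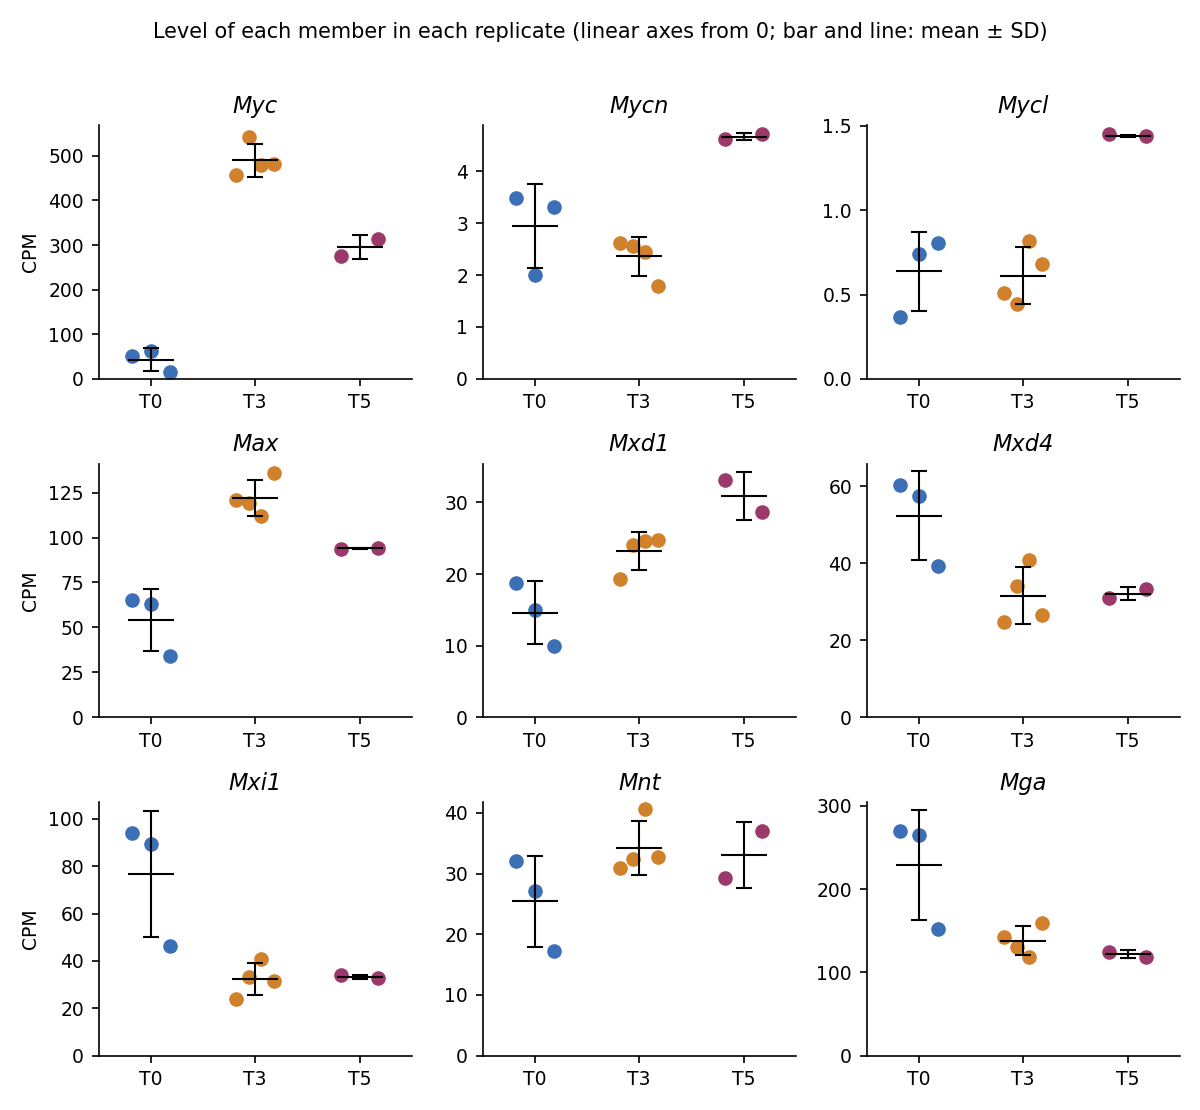
Level of each of the 9 members in every replicate, in CPM on a linear axis from 0 for each gene, with 1 point per replicate (T0 n = 3, T3 n = 4, T5 n = 2), a line at the mean and a bar of ± SD. Myc lies at 15.5 to 63.3 CPM in T0 and at 457 to 542 in T3, and Mxi1 lies at 46.3 to 94.1 CPM in T0 and at 24.1 to 40.6 in T3.

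Mycn (ENSMUSG00000037169.14, chr12:12936093-12941914, minus strand), the family member named for neuroblastoma, was expressed far lower. It stood at 3.48, 2.01 and 3.32 CPM in T0, at 2.62, 2.57, 2.45 and 1.79 CPM in T3, and at 4.62 and 4.72 CPM in T5. T0 and T3 overlap, and both T5 replicates lie above every other replicate. Mycn did not pass the test in T3 against T0 (log2 -0.32 ± 0.24 SE, adjusted p 0.342 in edgeR). It rose 1.98-fold in T5 against T3 (log2 0.98 ± 0.26 SE, adjusted p 0.0435 in edgeR). Against T0 the log2 difference was 0.67 ± 0.27 (SE) with an adjusted p of 0.0615 in edgeR. This passed with upper quartile scaling (0.0195) and without replicate 1 or 3 of T0 (0.0266 and 0.0229). It also passed with the T5 libraries separate (0.0228), which may share cells or animals. The call against T3 is lost under RLE scaling (adjusted p 0.085) and upper quartile scaling (0.0788). It is also lost in edgeR without replicate 1, 2, 3 or 4 of T3 (adjusted p 0.0699, 0.0789, 0.0809 and 0.155) and without replicate A or B of T5 (0.37 and 0.48).

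Mycl (ENSMUSG00000028654.13, chr4:122995652-123002485, plus strand), first described in lung cancer, was near background. Its levels were 0.368, 0.738 and 0.807 CPM in T0, 0.509, 0.445, 0.817 and 0.682 in T3, and 1.45 and 1.44 in T5, and the counts behind them were 17 to 64 for T0 and 28 to 53 for T3. Per kb of exon this was 1.78 to 5.09 times the background of the silent receptor genes, against 9.43 to 23.9 times for Mycn. Both T5 replicates of Mycl lie above all others. Mycl was 2.22-fold higher in T5 than in T0 (log2 1.15 ± 0.35 SE, adjusted p 0.0131 in edgeR), and it missed the threshold against T3 (log2 1.23 ± 0.33 SE, adjusted p 0.0517). Against T3 the adjusted p was also above 0.05 with RLE scaling (0.0754), upper quartile scaling (0.106) and in DESeq2 (0.0527). In edgeR it was 0.0612 without replicate 2 of T0, and 0.133, 0.16 and 0.0916 without replicate 1, 2 or 4 of T3. Without replicate A or B of T5, which leaves a single T5 replicate, the log2 difference was 1.22 or 1.23. The adjusted p in edgeR was 0.00577 with the 4 T5 libraries kept separate, which may share cells or animals. It was 0.00909 with only T3 and T5 in the fit, 0.0177 with no filter on low counts and 0.00839 without replicate 1 of T0. Without replicate 3 of T0 or replicate 3 of T3 it was 0.0217 or 0.0432. Against T0 it was 0.0586 with only T0 and T5 in the fit, 0.0726 without replicate A of T5 and 0.0768 without replicate B. T3 against T0 gave a log2 difference of -0.08 ± 0.32 (SE) with an adjusted p of 0.879 in edgeR.

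Within the Myc family, Myc held between 82.59 and 96.71% of the summed level per kb of exon in T0. The share was 99.46 to 99.6% in T3, and 98.3 and 98.48% in the 2 replicates of T5. The lowest share belongs to replicate 3 of T0.

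Max (ENSMUSG00000059436.12, chr12:76937269-76962201, minus strand), the partner that the other members share, rose with Myc but less. It was measured at 65.0, 63.0 and 34.1 CPM in T0, at 121, 119, 112 and 136 CPM in T3, and at 93.7 and 94.3 CPM in T5. No pair of groups overlaps, and T5 again lies between T0 and T3. Max was 2.26-fold higher in T3 than in T0 (122 ± 10.2 CPM, SD, n = 4, against 54.0 ± 17.3, n = 3), at a log2 difference of 1.18 ± 0.23 (SE) with an adjusted p of 0.000182 in edgeR. T5 against T3 did not pass the test (log2 -0.38 ± 0.25 SE, interval -0.88 to 0.13, adjusted p 0.561). T5 against T0 gave a 1.74-fold higher level (log2 0.80 ± 0.26 SE, adjusted p 0.0181 in edgeR). That call is lost with RLE scaling (adjusted p 0.0841), in DESeq2 (0.0718), and in edgeR without T5 replicate A (0.102) or B (0.115).

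Among the antagonists, Mxd1 rose, Mxi1 and Mxd4 fell, and Mnt did not pass the test. Mxd1 (ENSMUSG00000001156.9, chr6:86647042-86669161, minus strand), a repressor usually tied to differentiation, stood at 18.7, 15.0 and 10 CPM in T0, at 19.3, 24.1, 24.6 and 24.7 CPM in T3, and at 33.2 and 28.6 CPM in T5. The order of the groups is T0, T3, T5 with no overlap, although replicate 1 of T0 and replicate 1 of T3 are close. Mxd1 was 1.59-fold higher in T3 than in T0 (log2 0.67 ± 0.22 SE, adjusted p 0.0172 in edgeR) and 2.12-fold higher in T5 than in T0 (log2 1.09 ± 0.25 SE, adjusted p 0.00154). The first of these calls is lost without replicate 2 of T0 (adjusted p 0.0501 in edgeR). T5 against T3 gave a log2 difference of 0.42 ± 0.24 (SE) with an adjusted p of 0.484. The single T5 libraries spread more than their sums: 41.8 and 24.8 CPM under letter A, and 25.5 and 32.7 CPM under letter B.

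Mxi1 (ENSMUSG00000025025.13, chr19:53310518-53375810, plus strand), also known as Mxd2, fell the most of the members. It was at 94.1, 89.5 and 46.3 CPM in T0, at 24.1, 33.3, 40.6 and 31.6 CPM in T3, and at 33.9 and 32.7 CPM in T5. T0 lies above both other groups with no overlap, and T5 lies within the range of T3. Mxi1 was 2.37-fold lower in T3 than in T0 (32.4 ± 6.76 CPM, SD, n = 4, against 76.7 ± 26.4, n = 3; log2 -1.24 ± 0.23 SE, adjusted p 0.000152 in edgeR). In T5 it was 2.3-fold lower than in T0 (log2 -1.20 ± 0.29 SE, adjusted p 0.00225). T5 against T3 gave 0.04 ± 0.27 (SE), with an interval of -0.49 to 0.57 and an adjusted p of 0.959.

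Mxd4 (ENSMUSG00000037235.13, chr5:34173883-34187720, minus strand), a further Mxd repressor, had levels of 60.4, 57.5 and 39.3 CPM in T0, 24.7, 34.2, 40.9 and 26.7 CPM in T3, and 30.9 and 33.3 CPM in T5. Replicate 3 of T0 overlaps with T3, and replicates 1 and 2 of T0 lie above it. Mxd4 fell in T3 against T0 by 0.73 on the log2 scale (SE 0.22, adjusted p 0.00934 in edgeR) and in T5 against T0 by 0.71 (SE 0.27, adjusted p 0.0414). The first call is lost without replicate 2 of T0 (adjusted p 0.0509) and under upper quartile scaling (0.0537). The second is lost under upper quartile scaling (0.163) and in edgeR without replicate 1 or 2 of T0 (0.0933 and 0.122), replicate 2 or 4 of T3 (0.054 and 0.0531), or replicate A or B of T5 (0.267 and 0.173). The predicted gene Gm42846 lies on the other strand within Mxd4, and its count is 9.21 to 12.5% of that of Mxd4. Whether the counting separated strands is not stated, and reads of Mxd4 and Gm42846 may not be told apart. Of 222 protein-coding genes inside a non-coding gene on the opposite strand, 215 (96.85%) had a count no higher than that of the non-coding gene. Gm44292 in Mxd1 came to 7.91 to 11% of its host's count and Gm10197 in Mxi1 to 1.4 to 2.9%.

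Mnt (ENSMUSG00000000282.12, chr11:74830920-74845725, plus strand), the broadly expressed antagonist, had 32, 27.1 and 17.2 CPM in T0, 30.9, 32.4, 40.6 and 32.8 in T3, and 29.3 and 37.0 in T5. The 3 groups overlap. The log2 differences were 0.43 ± 0.22 (SE, adjusted p 0.142 in edgeR) in T3 against T0, -0.04 ± 0.25 (0.95) in T5 against T3 and 0.38 ± 0.26 (0.256) in T5 against T0. In T3 against T0, Mnt was called higher without replicate 1 of T0 (adjusted p 0.0339 in edgeR) and under upper quartile scaling (log2 0.76, adjusted p 0.00128), where the median of all genes moved from 0.05 to 0.32. Under that scaling it was also called in T5 against T0 (log2 0.77, adjusted p 0.00394).

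Mga (ENSMUSG00000033943.15, chr2:119897228-119969581, plus strand), the largest member, which has a T-box besides its Max-binding region, had 270, 265 and 152 CPM in T0, 143, 131, 118 and 159 CPM in T3, and 125 and 118 CPM in T5. Replicate 3 of T0 falls within the range of T3, and replicates 1 and 2 lie well above it. Mga was 1.66-fold lower in T3 than in T0 (log2 -0.73 ± 0.22 SE, adjusted p 0.00945 in edgeR), a call that is lost without replicate 2 of T0 (0.069). It was 1.88-fold lower in T5 than in T0 (log2 -0.91 ± 0.27 SE, adjusted p 0.0102), a call lost without replicate A (0.0963) or B (0.117) of T5. T5 against T3 did not pass the test (log2 -0.18 ± 0.25 SE, adjusted p 0.774).

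**Figure D2:**
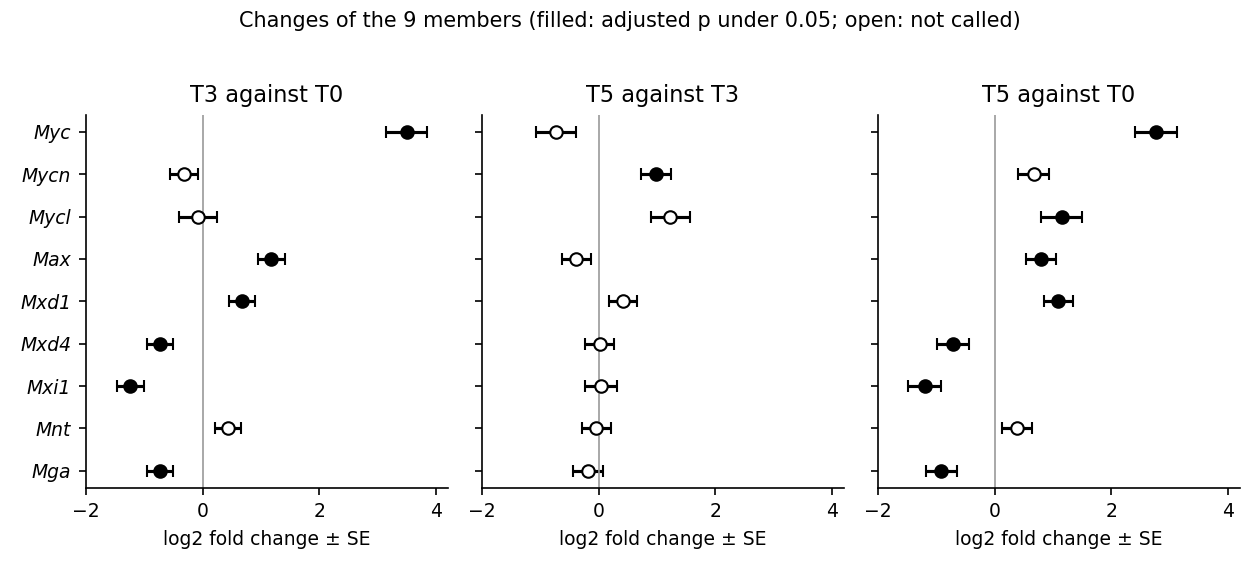
Log2 difference of each of the 9 members in the 3 comparisons, with bars of ± SE from edgeR, filled points for genes with an adjusted p under 0.05 and open points for the others. In T3 against T0 the points run from -1.24 (Mxi1) to 3.50 (Myc), and in T5 against T3 only the point of Mycn, at 0.98, is filled.

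Across the 9 members, 3 were called higher in T3 against T0 (Myc, Max and Mxd1), beside 15.0% of all tested genes, and 3 lower (Mxd4, Mxi1 and Mga), beside 22.9%. The 6 calls in either direction stand beside 37.9% of all tested genes. The groups did not overlap for 4 of the 9 members, Myc, Max, Mxd1 and Mxi1, beside 38.3% of all tested genes, and this count is near that share. The median of the 9 log2 differences was -0.08, against 0.0472 over all genes. With the added 2 h, T5 against T3, 1 member was called higher and 0 were called lower by edgeR, beside 1.28 and 0.888% of all genes (2.17% in either direction). Of the members with a lower mean in T5, 1 (Myc) had an unadjusted p under 0.05, and DESeq2 called 0 lower as well. The groups did not overlap for 5 members in that comparison (Myc, Mycn, Mycl, Max and Mxd1), beside 38.2% of all genes, and the median was 0.02 against 0.0511 over all genes. In T5 against T0, 4 members were called higher (Myc, Mycl, Max and Mxd1) and 3 lower (Mxd4, Mxi1 and Mga), beside 13.2 and 22.5% of all genes (35.7% in either direction). The groups did not overlap for 8 of the 9, beside 59.3% of all genes, and the median was 0.67 against 0.183. Without replicate 3 of T0, the members called numbered 6, 3 and 8 in the 3 comparisons, beside 50.6, 7.93 and 55.6% of all genes called under that setting. T5 against T3 shares the T3 replicates with T3 against T0, and T5 against T0 shares the T0 replicates with it.

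Levels of different genes were compared per kb of exon. In T0 the order was Myc, Max, Mga, Mxi1, Mxd4, Mnt, Mxd1, Mycn and Mycl. The first 4 of these overlap, at 5.72 to 23.3 CPM per kb for Myc, 9.48 to 18.1 for Max, 9.92 to 17.6 for Mga and 6.79 to 13.8 for Mxi1. Mxi1 and Mxd4 (4.63 to 7.12) also overlap, as do Mxd4 and Mnt (3.71 to 6.92). Mxd1 (1.41 to 2.64), Mycn (0.61 to 1.06) and Mycl (0.0911 to 0.2) each lie apart. In T3 the first places separate: Myc held 168 to 199 CPM per kb, Max 31 to 37.8 and Mga 7.71 to 10.4, which overlaps with Mnt at 6.68 to 8.78. Mxi1 (3.53 to 5.95), Mxd4 (2.91 to 4.82) and Mxd1 (2.73 to 3.5) follow; Mxd4 overlaps with both others, while Mxi1 and Mxd1 do not overlap. Mycn and Mycl come last. In T5 the order was that of T3 except that Mxd1 (4.04 to 4.7) stood above Mxd4 (3.65 to 3.92), with no overlap between the 2 in the added-up replicates. Mga (7.71 to 8.14) and Mnt (6.33 to 7.99) overlap in T5, and its other neighbours do not. Whether introns were counted is not stated, but the counts appear to include introns and both strands. Of 3433 genes inside a gene of the other strand, 3417 (99.53%) had a count no higher than that of the surrounding gene. Over 9280 protein-coding genes that overlap no other gene, the slope of log2 count was 1.03 on log2 exonic length and 0.456 on log2 intronic length. With introns in the counts, a value per kb of exon overstates genes with long introns. Per kb of the whole gene, Myc stayed first and Mycl last in all 3 groups, while Mxi1 moved down: T0 from place 4 to 6, T3 from place 5 to 7, T5 from place 5 to 8. Mxd4 moved up: T0 from place 5 to 2, T3 from place 6 to 4, T5 from place 7 to 3. In T5 it then stood above Mxd1, at place 6, so the order of Mxd1 and Mxd4 depends on the length used. Other members changed place too.

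The balance of the members was then read within each library, where scaling between libraries plays no part. The level of Myc per kb of exon was 1.05, 1.33 and 0.604 times that of Max in T0, 4.98, 6.01, 5.68 and 4.68 times in T3, and 3.9 and 4.41 times in T5. The summed level of Mxd1, Mxd4, Mxi1 and Mnt was 1.69, 1.59 and 1.75 times that of Max in T0, 0.47, 0.582, 0.742 and 0.485 times in T3, and 0.755 and 0.791 times in T5. T0 lies apart from the other groups in both ratios. The size of these ratios depends on the length used: per kb of the whole gene, Myc stood at 2.28 to 5.02 times Max in T0, 17.7 to 22.7 times in T3, and 14.7 and 16.7 times in T5. The antagonists then stood at 3.18 to 3.77 times Max in T0, 1.05 to 1.66 times in T3, and 1.66 and 1.77 times in T5, so T0 stays apart on either length. Replicate 3 of T0, which is low in most members, is at 1.75 in the second ratio, close to replicates 1 and 2. Relative to the 4 antagonists together, Myc stood at 0.62, 0.835 and 0.346 in T0, at 10.6, 10.3, 7.65 and 9.64 in T3 and at 5.16 and 5.57 in T5, with no overlap between any groups. Per kb of the whole gene the ratio was 1.17, 1.58 and 0.605 in T0, so whether Myc is below or above the antagonists there depends on the length used, and it was 12.9 to 17.9 in T3 and 8.87 and 9.41 in T5. No test was made of these ratios.

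The make-up of the 4 antagonists differed as well. Mxi1 held 45.3, 47.0 and 41.0% of their summed level in T0, 22.3 to 25.8% in T3, and 25.3 and 23.1% in T5. Mnt held 21.0 to 22.7% in T0, 36.3 to 42.2% in T3, and 32.2 and 38.5% in T5. Per kb of exon Mxi1 had the highest level of the 4 in every T0 replicate, and Mnt in every replicate of T3 and T5. That order does not hold per kb of the whole gene, where Mxd4 was highest in every T0 replicate (49.5 to 55.0%) and in replicates 2 and 3 of T3 and A of T5, and Mnt in replicates 1 and 4 of T3 and B of T5. On that scale, too, the share of Mxi1 was higher in T0 (13.8 to 17.0%) than in T3 (7.23 to 8.43%) and T5 (8.34 and 7.47%), and that of Mnt lower (22.5 to 24.5% in T0 against 31.7 to 40.8%). Mxd1 held 7.62 to 8.66% in T0, 15.1 to 19.0% in T3, and 23.9 and 19.5% in T5. Mxd4 held 23.4 to 28.0% in T0, 17.1 to 20.9% in T3, and 18.5 and 18.9% in T5.

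**Figure D3:**
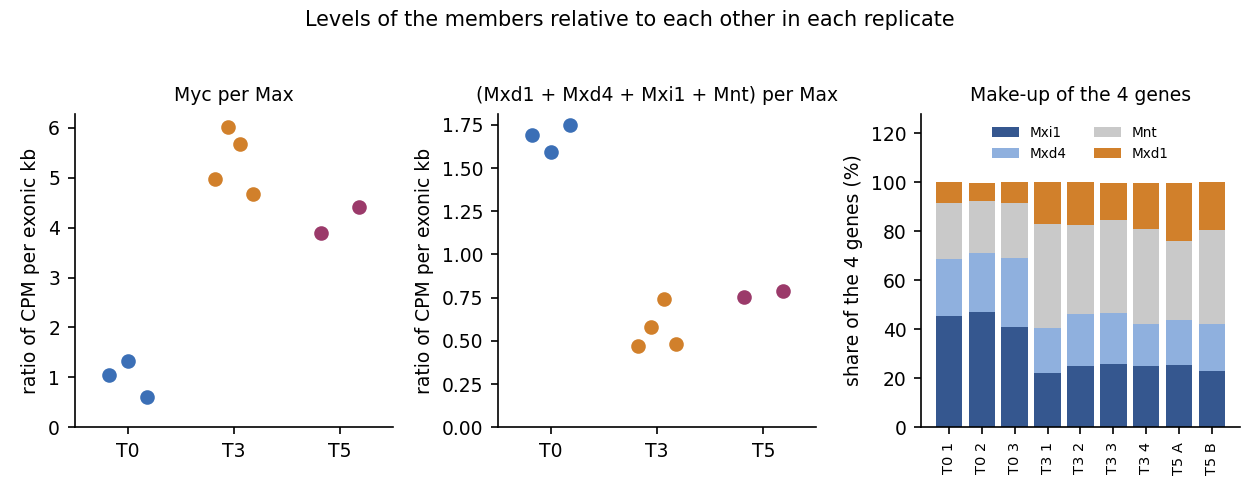
Level of Myc relative to Max (left), summed level of Mxd1, Mxd4, Mxi1 and Mnt relative to Max (middle), and share of each of these 4 genes in their sum in percent (right), all from CPM per kb of exon, with 1 point or bar per replicate of T0, T3 and T5. The first ratio is at most 1.33 in T0 and at least 3.9 in T3 and T5, and the share of Mxi1 is at least 41.0% in T0 and at most 25.8% in the other groups.

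The genes whose levels followed each member most closely were ranked by Pearson's r of log2 CPM over the 9 replicates, among 2327 well expressed genes that overlap no other gene. The points share the group structure, so r mostly reflects the order of the 3 groups, and no p is given. For Myc the highest r were those of Nolc1 (0.997), a nucleolar phosphoprotein gene, Slc7a6os (0.994) and Slc7a6 (0.994), an amino acid transporter gene. For Max they were Aebp2 (0.997), Otud4 (0.995) and Larp1 (0.995). For Mxd1 they were Hsp90ab1 (0.977), a chaperone gene, Abtb2 (0.975) and Shc1 (0.971). For Mxi1 they were Slc27a1 (0.989), a fatty acid transporter gene, Auh (0.988) and Rbms2 (0.985). For Mxd4 they were Sh2b1 (0.969), Foxo4 (0.966) and Col16a1 (0.959), and for Mga Btf3l4 (0.994), Ttc37 (0.992) and Taf2 (0.99). Likeness was looser for Mnt (Sap130, 0.935; Slc25a29, 0.933; Atf6b, 0.921), Mycl (Serpinh1, 0.901; Fads2, 0.891; Calcrl, 0.866) and Mycn (Tns3, 0.867; Myof, 0.848; Ptchd4, 0.84). Between members, r was 0.98 for Myc and Max, 0.97 for Mxi1 and Mxd4, 0.87 for Mxi1 and Mga, 0.82 for Myc and Mxd1 and 0.5 for Mycn and Mycl.

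The other genes of the pathway were read from 7 lists by their counts and medians, beside 15.0% higher and 22.9% lower over all genes in T3 against T0 and medians of 0.0472, 0.0511 and 0.183 over all genes in the 3 comparisons. Over all genes, 1.28% were called higher and 0.888% lower in T5 against T3, and 13.2 and 22.5% in T5 against T0. The first list holds Mxd3, the Mlx arm of the network (Mlx is a Max-like partner of the glucose-responsive factors Mlxip and Mlxipl) and other factors that bind E-boxes. Of its 13 genes, 4 rose and 7 fell in T3 against T0, with a median log2 difference of -0.69. Mlxip rose from 84.2 ± 23.1 CPM (SD, n = 3) in T0 to 225 ± 19.9 in T3 (n = 4), while Mlxipl, known as ChREBP, fell from 62.5 ± 27.2 to 18.9 ± 3.23 (adjusted p 1.56e-05 and 7.02e-06 in edgeR). Bhlhe41, a circadian repressor, fell from 19.6 ± 6.08 to 2.72 ± 0.675 CPM (adjusted p 7.26e-09), with Gm43909 over it at 15.7 to 29.6% of its count. Mxd3, Tfe3 and Mitf rose by 0.72, 0.65 and 0.54 on the log2 scale (adjusted p 0.0322, 0.0118 and 0.0316 in edgeR), with Mxd3 uncertain because Prelid1 overlaps it. Between T3 and T5, 2 genes of the list were called higher by edgeR and 1 by DESeq2, and 0 were called lower by edgeR (1 with an unadjusted p under 0.05) or by DESeq2. The 2 called higher by edgeR were Bhlhe40, a paralog of Bhlhe41 (24.1 ± 2.58 to 47.4 ± 3.71 CPM, adjusted p 0.0331), and Txnip, a glucose-responsive target of Mlxip and Mlxipl (22.5 ± 3.85 to 57.9 ± 3.84 CPM, adjusted p 0.0246). Txnip had fallen from 86.0 ± 47.3 CPM in T0 (adjusted p 1.33e-05). The annotated gene Gm15441 lies over Txnip with a count of 100 to 107% of it, and 0610040F04Rik over Bhlhe40 with 28.0 to 69.6%, so these values are uncertain.

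Of 20 genes that regulate the Myc gene or the stability of its protein, 12 rose and 4 fell in T3 against T0 (median 0.63), and 1 rose in T5 against T3 (median -0.15), where 0 were called lower by edgeR (1 at an unadjusted p under 0.05) and 1 by DESeq2. Pvt1 (ENSMUSG00000097039.8, chr15:62037986-62378096, plus strand) is a long non-coding RNA gene that starts 47611 bases after the end of Myc. It rose 4.38-fold in T3 against T0, from 481 ± 152 CPM (SD, n = 3) to 2110 ± 134 (n = 4; adjusted p 4.11e-07 in edgeR), and stood at 1470 ± 78.2 CPM (n = 2) in T5 (log2 -0.52 ± 0.27 SE against T3, adjusted p 0.431). The kinase genes Pim1 and Pim3, whose products phosphorylate Myc, went from 7.84 ± 2.33 to 190 ± 24.3 CPM and from 5.92 ± 2.42 to 22.2 ± 2.91 CPM (adjusted p 3.23e-11 and 2.28e-06). Gm26885 overlaps Pim1 with 34.3 to 104% of its count. Gsk3b, the kinase that marks Myc for degradation through Fbxw7, fell 2.39-fold (212 ± 35.8 to 88.7 ± 6.39 CPM, adjusted p 1.54e-05), and the ubiquitin ligase genes Skp2, Trim32 and Stub1 fell too, each overlapped by another counted gene. The ligase genes Fbxw7 and Huwe1, chosen after their values were seen, went the other way. They rose by 0.51 and 0.89 on the log2 scale (adjusted p 0.0497 and 0.00333 in edgeR), and other annotated genes overlap both. Aurkb, a mitotic kinase, was the gene that rose in T5 against T3 (0.452 ± 0.163 to 1.18 ± 0.0793 CPM, adjusted p 0.0322 in edgeR). Its mean in T3 was below the 0.613 CPM of Mycl, and under upper quartile scaling 0 genes of the list were called higher.

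**Figure D4:**
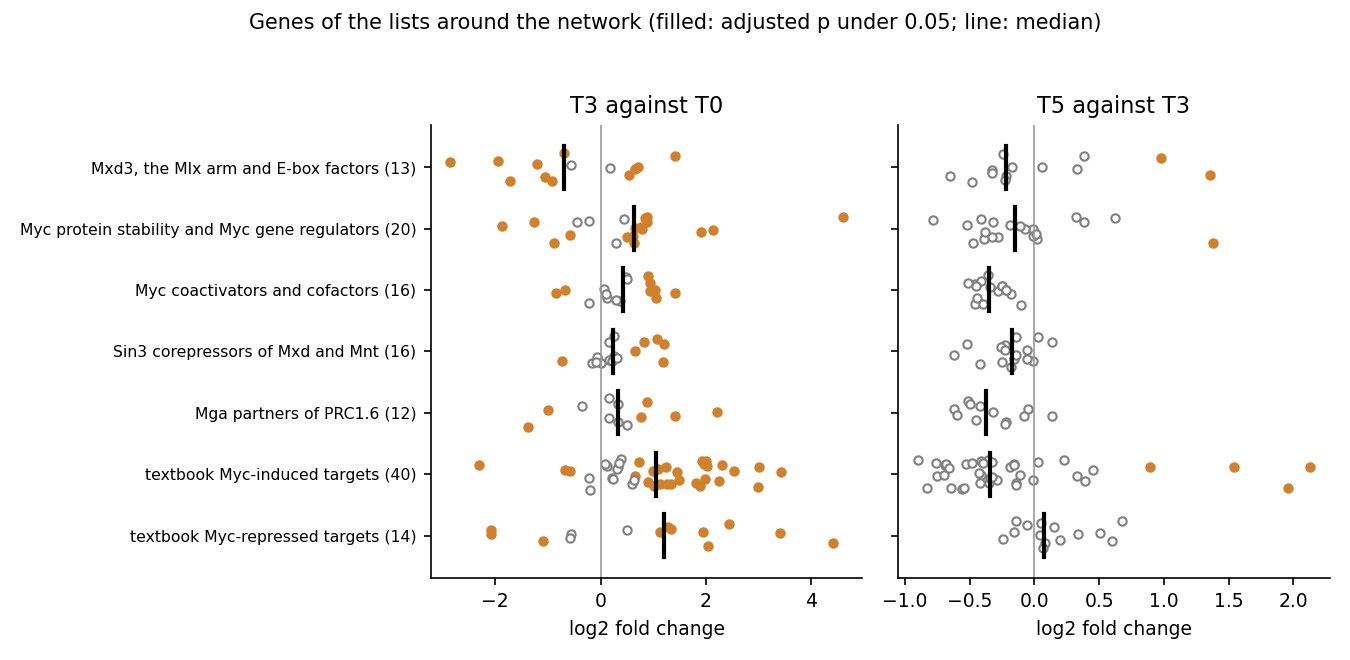
Log2 difference of every gene in the 7 lists of the pathway (1 point per gene, filled where the adjusted p is under 0.05, with a line at the median of the list), for T3 against T0 and for T5 against T3; the axes of the panels differ in range. In T3 against T0 the medians run from -0.69 for the Mlx arm to 1.20 for the repressed targets, and in T5 against T3 they run from -0.37 to 0.08.

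Among 16 genes for coactivators and cofactors of Myc, 6 rose and 2 fell in T3 against T0 (median 0.43), and in T5 against T3 edgeR and DESeq2 called 0 (0 and 5 at an unadjusted p under 0.05; median -0.35). Under upper quartile scaling 13 rose and 1 fell in T3 against T0. Wdr5, a histone methyltransferase subunit that contacts Myc, rose 2.65-fold to 70.1 ± 6.97 CPM (SD, n = 4; adjusted p 1.35e-05), and Ruvbl1, an ATPase of the TIP60 complex, rose 1.92-fold to 38.7 ± 2.55 (adjusted p 0.000662). The acetyltransferase gene Kat2a and the SWI/SNF subunit gene Smarcb1 fell by 0.84 and 0.67 on the log2 scale (adjusted p 0.00747 and 0.0113 in edgeR). Of 16 genes for the Sin3 corepressors used by Mxd proteins and Mnt, 5 rose and 1 fell in T3 against T0 (median 0.23), or 11 and 1 under upper quartile scaling. For T5 against T3, edgeR and DESeq2 called 0 (1 and 2 at an unadjusted p under 0.05; median -0.17). Sap18, Rbbp7 and Arid4a, the last chosen after its values were seen, rose by 1.19, 0.83 and 0.66 on the log2 scale; Ska3 overlaps Sap18 with 20.7 to 110% of its count and Txlng overlaps Rbbp7 with 83.4 to 126%, so both are uncertain. Arid4b rose from 157 ± 36.6 to 361 ± 42.5 CPM and Sap30 from 1.76 ± 0.347 to 3.7 ± 0.27 CPM (adjusted p 0.000109 and 0.000475). The scaffold gene Sin3a fell from 110 to 65.6 CPM (adjusted p 0.0075 in edgeR), with Man2c1os over it at 60.5 to 68.1% of its count. Of 12 genes for the partners of Mga in PRC1.6, 4 rose and 2 fell in T3 against T0 (median 0.34), or 9 and 2 under upper quartile scaling. Both edgeR and DESeq2 called 0 in T5 against T3 (2 and 5 at an unadjusted p under 0.05; median -0.37), and edgeR called 4 lower without replicate 3 of T0. Rybp rose 4.64-fold (23.5 ± 5.92 to 109 ± 19.4 CPM, adjusted p 8.9e-08). Wdr5 belongs to this list too, and E2f6 and Rnf2, chosen after their values were seen, rose by 0.76 and 0.88 on the log2 scale. The ubiquitin ligase gene Ring1 fell 2.6-fold (15.9 ± 5.27 to 6.1 ± 0.17 CPM, adjusted p 1.95e-05) and the heterochromatin protein gene Cbx3 fell 1.99-fold (22.3 ± 5.79 to 11.2 ± 1.73 CPM, adjusted p 0.000542).

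Of 40 genes that textbooks give as induced by Myc, 25 rose and 3 fell in T3 against T0 with a median log2 difference of 1.05, and 35 had a difference above 0. After the added 2 h, T5 against T3, 4 rose, while 31 of the 40 had a difference below 0 and the median was -0.35. In that comparison 0 were called lower by edgeR (12 at an unadjusted p under 0.05) and 2 by DESeq2, and edgeR called 11 lower without replicate 3 of T0. In T5 against T0, 19 were higher and 4 lower (median 0.71). Odc1, the first enzyme of polyamine synthesis, rose 7.95-fold in T3 against T0, from 15.9 ± 4.88 to 126 ± 30.3 CPM (SD, n = 3 and n = 4; adjusted p 8.58e-09 in edgeR). The glucose transporter gene Slc2a1 rose from 13.3 ± 4.3 to 76.6 ± 6.73 CPM (adjusted p 2.02e-08). Other counted genes overlap Odc1 (3.14 to 53.2% of its count) and Slc2a1 (26.7 to 34.3%). Mthfd2, a mitochondrial enzyme of one-carbon metabolism, rose from 3.76 ± 0.781 CPM in T0 to 40.3 ± 3.36 in T3 (adjusted p 1.83e-10) and again to 74.7 ± 1.91 in T5 (n = 2; adjusted p 0.0267 against T3). E2f2, a cell cycle factor, went the other way, from 19.0 ± 0.485 to 3.82 ± 0.695 CPM and back to 14.9 ± 0.228 in T5 (adjusted p 8.35e-09 and 7.86e-06). Cad, the enzyme that starts pyrimidine synthesis, fell 1.6-fold in T3 against T0 (48.2 ± 15.3 to 30.0 ± 4.52 CPM, adjusted p 0.017), and Prdx3 fell by 0.58 on the log2 scale (adjusted p 0.044). The mitochondrial chaperone gene Hspe1 rose 4.38-fold in T5 against T3 (adjusted p 7.32e-05 in edgeR), with Hspd1 over it at 214 to 365% of its count. Hspd1, named because it completes the 4, rose by 1.54 on the log2 scale. CACGTG was found in the promoter windows of 8 of the 34 matched genes of this list (23.5%), beside the 8.09% of all genes. The share was 3 of 12 (25%) in the list of Myc-repressed genes and 4 of 11 (36.4%) in that of the Mlx arm.

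Of 14 genes that textbooks give as repressed by Myc, 8 rose and 3 fell in T3 against T0 (median 1.20), or 9 and 5 without replicate 3 of T0. Neither tool called a gene in T5 against T3: edgeR and DESeq2 called 0 (2 and 0 at an unadjusted p under 0.05; median 0.08). Gadd45g, a stress-response gene, rose from 0.296 ± 0.128 to 6.48 ± 1.73 CPM (SD, n = 3 and n = 4). Cdkn1a, which encodes the cell cycle inhibitor p21, rose 10.6-fold from 6.98 ± 3.11 to 74.0 ± 20.2 CPM (adjusted p 9.56e-09 in edgeR). The zinc finger factor gene Klf6 and the stress gene Ndrg1 rose 5.37-fold and 3.87-fold, with Gm17035 over Ndrg1 at 22.5 to 27.3% of its count. Cdkn1b, which encodes the inhibitor p27, fell 2.14-fold (38.6 ± 9.81 to 18 ± 4.27 CPM, adjusted p 0.000374), Ndrg2 fell 4.23-fold, and the quiescence factor gene Foxo3 fell 4.24-fold (424 ± 210 to 99.9 ± 17.7 CPM, adjusted p 2.45e-06). Beside these counts, 12 of 16 myofibre markers rose and 2 fell in T3 against T0, 4 of 15 monocyte, macrophage and neutrophil markers rose, and 3 of 12 muscle stem cell markers rose and 5 fell. The shares over all genes were 15.0% higher and 22.9% lower. Their part in the list counts was not tested.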

How the data were processed

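The authors deposited 1 table of raw read counts per gene for 11 libraries (Pico total RNA kit, 65-bp single-end reads, per the labels). Per the submitters' processing notes, the build was GRCm38 and the tools were STAR 2.5.0a, R 3.3.1, DESeq2 1.12.3 and featureCounts 1.4.6-p3. Annotation release, strand setting and filters are not given in the sources used here. Of the IDs, 360 had no entry in GENCODE vM21.

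The main test was the quasi-likelihood F test of edgeR 4.0.16 (two-sided, TMM scaling, filterByExpr, all 3 groups in 1 fit), tested on simulated data. A gene is called at a Benjamini-Hochberg adjusted p under 0.05 over all 31999 genes tested. CPM uses TMM-corrected library sizes, and SE is the log2 difference over the root of F. Replicates of T0 and T3 are numbered by column, because the columns could not be matched to the letters in the sample titles. Alternatives were RLE and upper quartile scaling, DESeq2 1.42.0, no filter, 2 groups only, separate T5 libraries, left-out replicates and a replicate block.

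In each list, up to 4 genes with the smallest p in T3 against T0, up to 2 in T5 against T3, and called genes against the majority of their list are named. For likeness, the 3 genes with the highest r (prior count 2) are named. Members and lists were chosen with earlier results of these data known.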

Additional observations from a re-analysis of the deposited data

Results flagged for a closer look

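Within T3, Mxd1 was the 1 member with a value that lay far from its group. This check does not speak to T0, where replicate 3 was lowest for 7 of the 9 members. Replicate 1 stood at 19.3 CPM and the other 3 replicates at 24.1 to 24.7 CPM, so the gap below the others took 0.884 of the group's whole range, above the Dixon limit for 4 samples. All 9 members were examined in T3, and chance flags about 1 in 20 groups.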

How the results depend on the processing

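The calls of Myc, Max and Mxi1 in T3 against T0, and those of Myc, Mxd1 and Mxi1 in T5 against T0, held under every alternative run: the log2 difference of Myc ranged from 3.10 to 3.87 and from 2.37 to 3.19, that of Mxi1 from -1.50 to -0.90 and from -1.46 to -0.81, that of Max from 0.93 to 1.52 and that of Mxd1 from 0.88 to 1.47. The number of members called with each replicate left out in turn was 3 to 7 in T3 against T0 (6 with all), 0 to 3 in T5 against T3 (1 with all) and 3 to 8 in T5 against T0 (7 with all). In T5 against T3 it was 0 with RLE scaling, 0 with upper quartile scaling, 2 with no filter on low counts, 3 with only the 2 groups in the fit and 2 with the T5 libraries separate. The cause was not tested.

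Signs turned only for members that were not called. Mycl in T3 against T0 was 0.17 with upper quartile scaling and ran from -0.34 to 0.13 with a replicate left out. In T5 against T3, Mxd4 was -0.08 with RLE scaling and -0.09 in DESeq2, Mxi1 was -0.06 and -0.07, and Mnt was 0.00 with upper quartile scaling; with a replicate left out Mxd4 and Mxi1 reached -0.08 and Mnt ran from -0.22 to 0.11. Of 414 member values under alternatives, 354 kept sign and side of the threshold, 30 lost the call, 15 gained it and 15 turned sign.

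Upper quartile scaling moved the median of all genes to 0.32 in T3 against T0 and 0.51 in T5 against T0, with 7159 higher and 5798 lower calls (44.7% lower, against 60.4%) and 7144 and 5626 (44.1% lower, against 62.9%). In T5 against T3 the calls were 411 higher and 284 lower, and they were 1348 and 1645 with only the 2 groups, 923 and 1199 with the T5 libraries separate, 695 and 518 with no filter, 334 and 688 in DESeq2, 796 and 643 without replicate 1 of T0, 922 and 1581 without replicate 3 of T0, 271 and 186 without replicate 4 of T3, 165 and 59 without T5 replicate A and 143 and 41 without B. Whether replicate numbers of T0 and T3 columns pair the samples is not known. Same-numbered samples correlated at -0.168, 0.21 and 0.22, within the range of samples with unlike numbers (-0.315 to 0.307). So few pairs cannot decide it. A replicate block gave 4 members called (Mxd1 and Mxd4 lost the call, at an adjusted p of 0.062 and 0.0808) and 4170 higher and 6053 lower calls over all genes in edgeR. Low counts limit Mycl most.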
